A study of Mus musculus with 57 samples.

Results

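Open chromatin of unstimulated mouse epiblast stem cells (EpiSCs), mapped by ATAC-seq, was set beside that of mouse embryos at embryonic day 6.0 (E6.0). The comparison covered the peak lists of 3 libraries, chosen by their titles and treatment labels, with 160811 regions of the 591931 regions in the 32 libraries of the series that have a peak list (57 samples in all). The first group was wild-type EpiSCs at 0 h (1 library). They were derived from epiblast explants of pre-streak E6.0 embryos after removal of extraembryonic tissue and primitive endoderm, started on mouse embryonic fibroblast feeders and later grown without feeders on fibronectin, with Fgf-basic, Activin A and the Wnt inhibitor IWP2 (2 µM). The second group was wild-type E6.0 embryos (2 libraries, replicates 1 and 2), with no treatment. The labels do not give the strain, the number of EpiSC lines, the number of embryos per library, or whether extraembryonic tissue was taken off the embryos before the assay. With 1 EpiSC library no test between the groups was possible. Shares carry 95% Wilson intervals, which cover counting error only, and the spread between samples is given by the 2 E6.0 libraries, which the labels do not tie to separate litters.

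ATAC-seq uses a transposase that inserts sequencing adapters into accessible DNA, so its peaks mark open promoters, enhancers and other sites where nucleosomes are displaced. EpiSCs are pluripotent cells in the primed state, the state of the epiblast between implantation and gastrulation, and depend on Fgf and Activin signalling. Pre-streak embryos contain the epiblast together with visceral endoderm and extraembryonic ectoderm. In the epiblast, Wnt signals induce the primitive streak, and IWP2 holds this back in culture by blocking secretion of Wnt proteins. H3K4me3 marks promoters, H3K27ac marks active promoters and enhancers, and H3K27me3 is the mark set by Polycomb repressive complex 2.

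The EpiSC list held 41309 regions with a median width of 463 bp, covering 26.7 Mb. The E6.0 lists held 57569 regions (417 bp, 33.7 Mb) in replicate 1 and 61933 regions (401 bp, 35.1 Mb) in replicate 2. The files hold no read counts. Depth is therefore unknown, and a region absent from a list may have been missed at low depth. By the folder names inside the peak names, the EpiSC list and the E6.0 replicate 1 list came from the same processing folder and the E6.0 replicate 2 list from another. Stage names there differ from the labels for both E6.0 libraries, and the labels were followed. Fold enrichment over local background and −log10 q values are those of the authors' peak caller. They were used to rank regions within a list and, in an alternative setting, to keep regions with −log10 q of at least 5. Fold values printed for several lists are each list's own.

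Most open regions of EpiSCs were also open in the embryo. Of the 41309 EpiSC regions, 27911 were listed in both E6.0 libraries (67.6%, 95% interval 67.1 to 68.0) and are called shared, while 8350 were listed in neither (20.2%, 19.8 to 20.6) and are called EpiSC-only. A further 1636 regions (3.96%) were found in E6.0 replicate 1 alone and 3412 (8.26%) in replicate 2 alone. From the embryo side, 45003 regions of replicate 1 were also listed in replicate 2, and 16920 of these were absent from EpiSCs (37.6%), called embryo-only. Shared regions were wide, with a median of 679 bp, against 264 bp for EpiSC-only and 356 bp for embryo-only regions. EpiSC-only regions come from 1 library, while embryo-only regions had to be found in 2, so contrasts between these classes include that difference. Regions in 1 E6.0 library and in neither the other nor EpiSCs are called 1-library embryo regions. Their median width was 242 bp in replicate 1 and 215 bp in replicate 2.

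The larger embryo-only share went with the longer embryo lists. When each list was cut to its 41309 strongest regions, 29.3% of EpiSC regions lay in neither E6.0 library. Of the regions in both E6.0 libraries, 26.5% were absent from EpiSCs, so the order of the 2 shares was turned round. These shares are unlike measures, because only the embryo regions had to be found in 2 libraries first. In the same equal lists, taken pair by pair after the data had been seen, 36.6% and 34.7% of EpiSC regions were missing from E6.0 replicates 1 and 2. In the other direction 36.8% and 35.3% of the regions of replicates 1 and 2 were missing from EpiSCs. Between the E6.0 libraries themselves 21.4% of replicate 1 regions were missing from replicate 2 and 21.6% of replicate 2 regions from replicate 1. In equal lists EpiSCs thus differed from each embryo library more than the embryo libraries differed from each other. With the lists as deposited, 28.5% of EpiSC regions were missing from replicate 1 and 24.2% from replicate 2. Among E6.0 regions as deposited, 27.7% of replicate 2 were missing from replicate 1 and 21.8% of replicate 1 from replicate 2. The 24.2% lay between these 2 embryo shares, so for EpiSC regions as deposited the excess was not seen against both. EpiSC and E6.0 replicate 1 lists came from the same processing folder, and as deposited 71.5% of EpiSC regions were found in replicate 1 and 75.8% in the longer list of replicate 2. In the other direction 51.6% of replicate 1 regions and 50.7% of replicate 2 regions were found in EpiSCs. The part of the folder in these shares was not tested.

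The strongest open regions of EpiSCs were nearly all open in the embryo, and a larger part of the strongest embryo regions was missing from EpiSCs. The lists were divided into quintiles by −log10 q, with quintile 1 the weakest and quintile 5 the strongest. EpiSC-only regions made up 45.7% of quintile 1, 32.2% of quintile 2, 18.1% of quintile 3, 4.74% of quintile 4 and 0.303% of quintile 5 of the EpiSC list, where they numbered 25 regions. Shared regions made up 34.9%, 47.4%, 66.1%, 90.0% and 99.4% of the same quintiles. In the E6.0 replicate 1 list, embryo-only regions made up 31.0%, 39.5%, 41.1%, 28.4% and 6.91% of quintiles 1 to 5, and the last of these were 796 regions. Of those 796 regions, 452 (56.8%) also fell in quintile 5 of replicate 2, and their median width was 739 bp. In lists of equal length, 0.835% and 0.617% of quintile 5 regions of EpiSCs were missing from E6.0 replicates 1 and 2, against 4.13% and 5.44% of quintile 5 regions of replicates 1 and 2 that were missing from EpiSCs. The E6.0 libraries missed 0.0605% and 0.157% of each other's quintile 5 regions. In numbers, EpiSCs had 69 and 51 quintile 5 regions that the embryo lists lacked, and the embryo lists had 341 and 449 that the EpiSC list lacked.

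**Figure D1:**
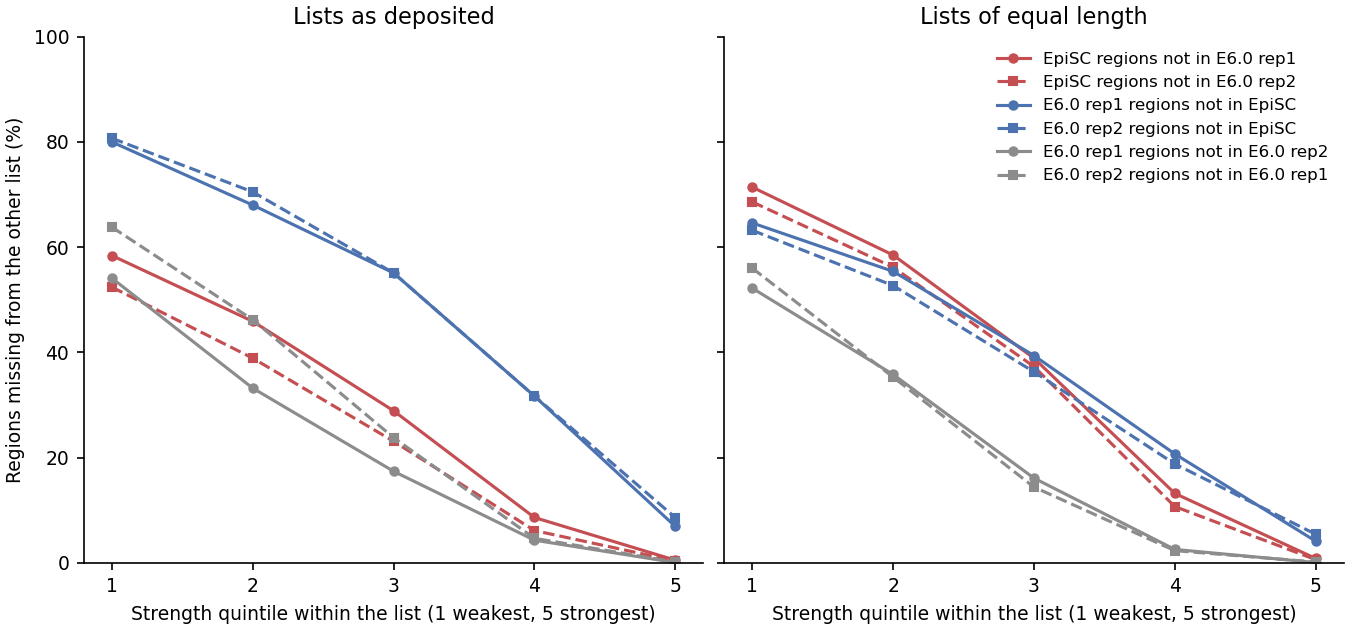
Percent of the regions of 1 list that are missing from another (vertical axis) by strength quintile of the first list (horizontal axis, 1 weakest to 5 strongest), for the 6 ordered pairs of the EpiSC, E6.0 replicate 1 and E6.0 replicate 2 lists, as deposited (left) and cut to 41309 regions each (right). With equal lists the 4 lines between EpiSCs and embryos lie above both lines between the E6.0 libraries in every quintile, and in quintile 5 the embryo regions missing from EpiSCs reach 4.13% and 5.44%.

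EpiSC-only regions lay mostly outside promoters and carried few histone marks. The H3K4me3 list used here is of Wnt3KO EpiSCs at 0 h and the H3K27ac list of wild-type EpiSCs at 0 h, each 1 library, so the genotype of the H3K4me3 list differs from that of the ATAC-seq libraries. The labels give IWP2 (2 µM) for the 0 h ATAC-seq and H3K27ac libraries of wild-type EpiSCs. They give no IWP2 for the 0 h H3K4me3 and H3K27ac libraries of Wnt3KO EpiSCs. For both 0 h H3K27me3 libraries of Wnt3KO EpiSCs, used below, they give IWP2 (2 µM). H3K4me3 was found at 2.73% of EpiSC-only and 52.7% of shared regions, where all EpiSC regions gave 37.0%. H3K27ac was found at 4.97% (95% interval 4.52 to 5.46) of EpiSC-only and 33.3% of shared regions, where all EpiSC regions gave 24.3%. Neither mark was found at 93.2% of EpiSC-only regions and at 42.3% of shared regions. The median distance to the nearest H3K4me3 region was 61.2 kb for EpiSC-only regions and 0 for shared regions. For wild-type cells, 2 H3K4me3 libraries have titles and treatment labels in conflict, so neither was taken as 0 h. Their lists covered 3.83% and 3.23% of EpiSC-only regions and 57.4% and 54.7% of shared regions.

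Embryo-only regions carried H3K27ac of EpiSCs even less often, while the order for H3K4me3 depended on the list. H3K4me3 of Wnt3KO EpiSCs was found at 2.03% of them and H3K27ac of wild-type EpiSCs at 0.934%, where all regions listed in both E6.0 libraries gave 33.7% and 21.0%. The 2 wild-type H3K4me3 lists with labels in conflict covered 3.95% and 3.06% of them, against 3.83% and 3.23% of EpiSC-only regions. H3K27ac was thus listed at 415 of 8350 EpiSC-only regions and at 158 of 16920 embryo-only regions. At 1-library embryo regions it was 0.495% for replicate 1 and 1.11% for replicate 2. Embryo-only regions lay a median of 42.9 kb from the nearest H3K4me3 region. H3K27me3 of Wnt3KO EpiSCs had the other order. It was found at 0.168% and 0.263% of EpiSC-only regions in its 2 libraries, at 4.34% and 6.83% of shared regions, and at 2.23% and 3.11% of embryo-only regions. All of these marks were measured in EpiSCs, and no histone mark of embryos was used here.

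**Figure D2:**
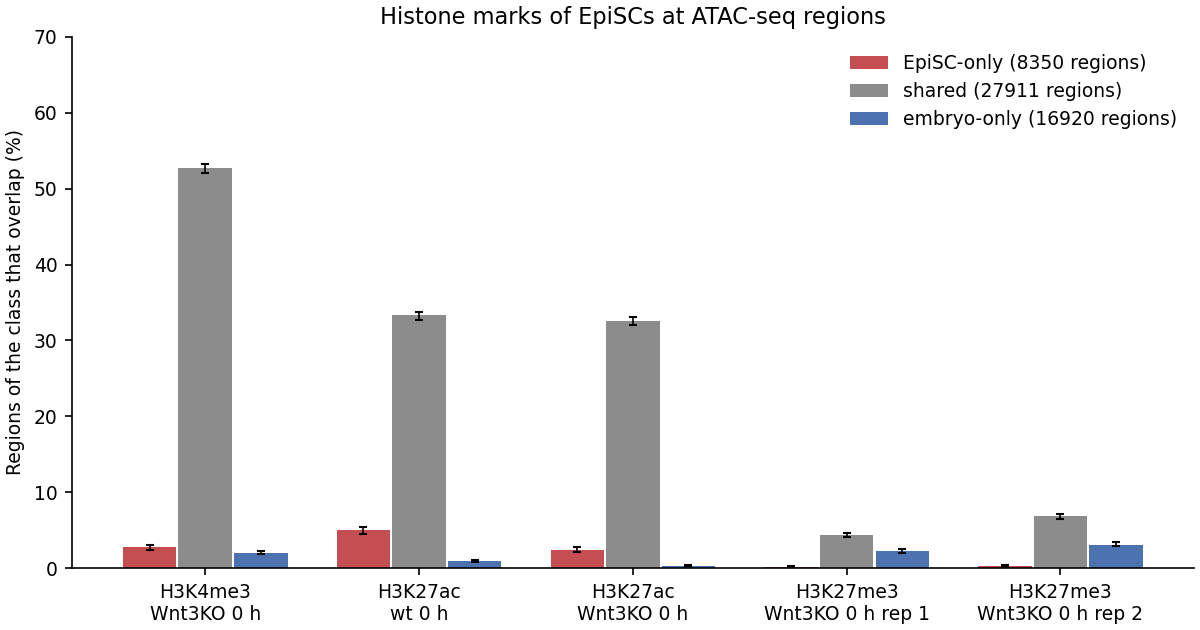
Percent of EpiSC-only, shared and embryo-only ATAC-seq regions (bars, with 95% Wilson intervals) that overlap a region of H3K4me3, H3K27ac or H3K27me3 in EpiSCs at 0 h. Shared regions carry the active marks most often, with 52.7% for H3K4me3 and 33.3% for wild-type H3K27ac, and EpiSC-only regions carry H3K27me3 at 0.168% and 0.263%.

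Strong EpiSC-only regions often carried H3K27ac of wild-type EpiSCs without H3K4me3, a combination often found at active enhancers. H3K27ac without H3K4me3 was found at 2.20%, 3.19%, 5.96%, 18.4% and 44.0% of EpiSC-only regions in quintiles 1 to 5. Among shared regions the shares in the same quintiles were 2.29%, 3.68%, 5.20%, 7.68% and 4.01%. In quintile 4 this was 72 of 392 EpiSC-only and 571 of 7435 shared regions, and in quintile 5 it was 11 of 25 EpiSC-only and 329 of 8214 shared regions. The strongest shared regions were instead mostly at promoters, with H3K4me3 at 60.5% in quintile 4 and 90.9% in quintile 5, against 2.30% (9 of 392) and 2 of 25 EpiSC-only regions. Regions with H3K4me3 cannot carry the combination, so its shares do not show it to be particular to EpiSC-only regions. With or without H3K4me3, wild-type H3K27ac was found at 34.4% and 70.1% of shared regions in quintiles 4 and 5. At EpiSC-only regions it was 19.4% and 52.0%. The H3K27ac list of Wnt3KO EpiSCs, taken with or without H3K4me3, covered fewer of the strong EpiSC-only regions, with 40 of 392 (10.2%) in quintile 4 and 5 of 25 in quintile 5, against 76 of 392 (19.4%) and 13 of 25 for the wild-type list. At shared regions in quintile 5 the same 2 lists covered 72.9% (Wnt3KO) and 70.1% (wild type). These 2 H3K27ac lists differ in genotype and in the IWP2 label, and the part of each was not tested. Embryo-only regions carried H3K27ac of EpiSCs at 0.980% in quintile 1 and 1.38% in quintile 5 of the replicate 1 list. H3K27me3 was found in at least 1 of its lists at 13.1% of shared regions in quintile 1 and 3.82% in quintile 5. At EpiSC-only regions it was 0.556% in quintile 1 and 0 in quintiles 3, 4 and 5.

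**Figure D3:**
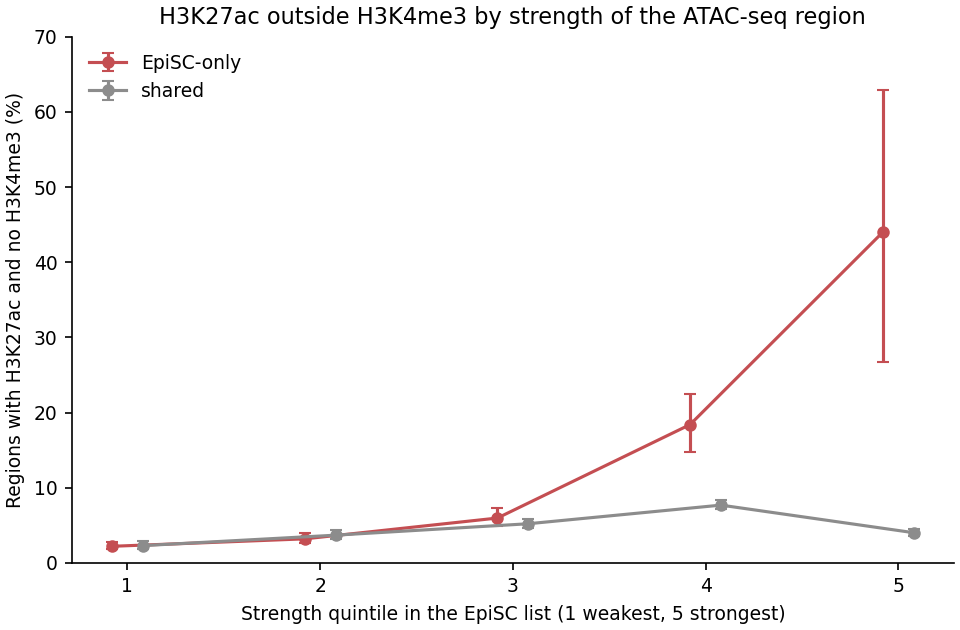
Percent of EpiSC-only and shared regions that overlap H3K27ac of wild-type EpiSCs and no H3K4me3 (vertical axis) by strength quintile in the EpiSC list (horizontal axis). Points carry 95% Wilson intervals, and EpiSC-only regions reach 18.4% in quintile 4 and 44.0% in quintile 5, where they number 25. Regions with H3K4me3 cannot count here, and they are 60.5% of shared regions in quintile 4 and 90.9% in quintile 5.

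The other ATAC-seq libraries of the series, none of which was used to define the classes, separated the classes further. In wild-type EpiSCs treated with CHIR99021 (3 µM, an inhibitor of GSK3 that activates Wnt signalling) for 48 h, 33.3% of EpiSC-only, 79.9% of shared and 10.8% of embryo-only regions were listed. The labels give IWP2 for the 0 h ATAC-seq library of EpiSCs and none for the 48 h library. In the 2 libraries of wild-type E7.2 embryos, replicates 1 and 2, the shares were 2.93% and 26.2% for EpiSC-only, 78.0% and 95.9% for shared, and 34.9% and 70.1% for embryo-only regions. In the library of the posterior part of E7.5 embryos they were 11.2%, 72.3% and 23.5%. Of the 1-library embryo regions of E6.0 replicate 1, 5.75% and 40.3% were listed in E7.2 replicates 1 and 2. For those of E6.0 replicate 2 the shares were 7.61% and 31.0%. The E7.2 lists differ in length, with 33881 and 72433 regions, and the shares in replicate 1 are lower in every class. By the folder names, the 48 h and E7.2 replicate 2 lists came from the folder of E6.0 replicate 2, and the E7.2 replicate 1 and E7.5 lists from that of the EpiSC and E6.0 replicate 1 lists. The part of the folder in these shares was not tested. Listing in both E7.2 libraries was found for 2.43% of EpiSC-only and 33.5% of embryo-only regions. None of these 4 libraries listed 53.1% of EpiSC-only, 2.69% of shared and 27.3% of embryo-only regions.

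Strength in the first list went with listing elsewhere. The 48 h library listed 22.8% of EpiSC-only regions in quintile 1 and 80.0% (20 of 25) in quintile 5, and E7.2 replicate 1 listed 2.12% in quintile 1 and 12.0% (3 of 25) in quintile 5. The longer list of E7.2 replicate 2 held 18.1% and 60.0% (15 of 25) of them. For embryo-only regions, E7.2 replicate 1 listed 16.5% of those in quintile 1 and 82.9% of those in quintile 5, while the 48 h EpiSC library listed 9.74% and 11.9%. Strong embryo-only regions were therefore mostly listed again in the later embryo and seldom in stimulated EpiSCs.

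**Figure D4:**
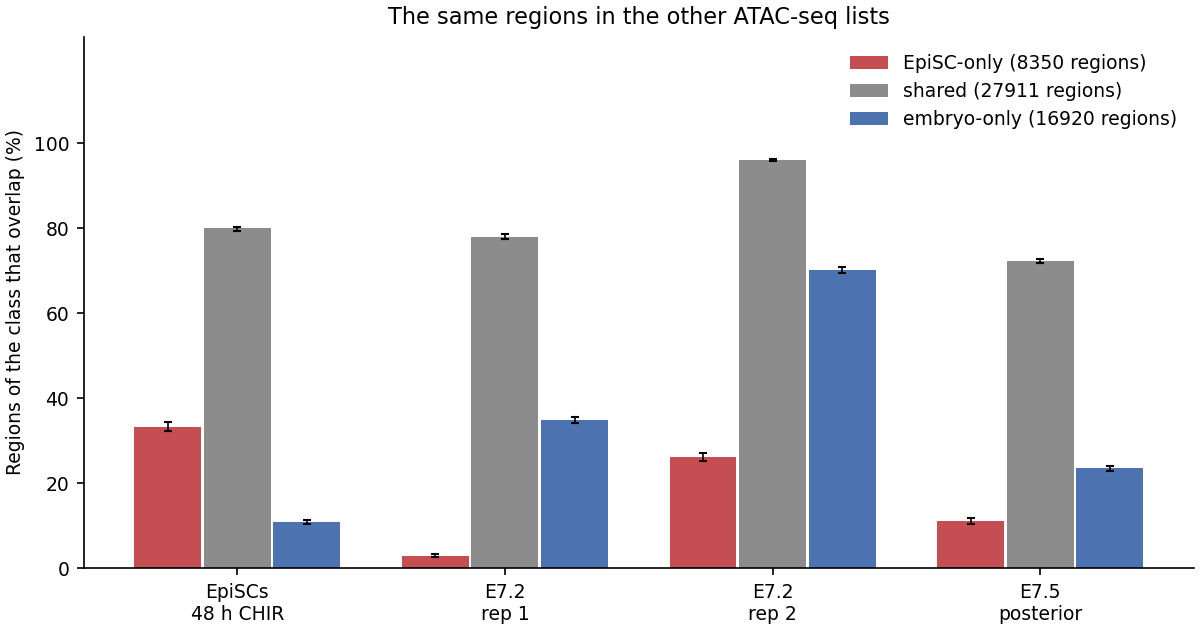
Percent of EpiSC-only, shared and embryo-only regions (bars, with 95% Wilson intervals) listed in 4 ATAC-seq libraries that did not define the classes: EpiSCs after 48 h of CHIR99021, E7.2 replicates 1 and 2, and the E7.5 posterior part. EpiSC-only regions are listed more often than embryo-only regions in stimulated EpiSCs (33.3% and 10.8%) and less often in each embryo library.

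The regions with the highest −log10 q in each class were of different kinds. Positions are in mm9. The 5 leading shared regions were 248 to 920 bp wide, reached 320-fold enrichment in EpiSCs (chr12:79451852-79452163), carried none of the marks and were listed in all 4 other ATAC-seq libraries. The leading 2 EpiSC-only regions were of the same narrow kind, 167 bp at chr13:113368385-113368551 (201-fold) and 160 bp at chr1:104524756-104524915 (108-fold), with no mark. The next, chr16:58057925-58058835, was 911 bp wide with 52.3-fold enrichment, carried H3K27ac in wild-type EpiSCs, lay 349 kb from H3K4me3 and was listed at 48 h but in no later embryo library. At chr4:126904244-126905261 (1018 bp, 36.3-fold), H3K27ac was listed in both wild-type and Wnt3KO EpiSCs, and the region was listed at 48 h and in both E7.2 libraries. The fifth, chr15:41662221-41662683 (40.3-fold), overlapped both H3K4me3 and H3K27ac. EpiSC-only regions with H3K27ac and no H3K4me3 were ranked too, a choice made after the values were seen that left out chromosome 18. On the other chromosomes the next strongest were chr6:123596042-123598232 (2191 bp, 40.3-fold), chr13:103704716-103705654 (939 bp, 28.2-fold) and chr12:49040341-49041234 (894 bp, 35.1-fold). Of these, the last was listed in none of the 4 other libraries.

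The 5 leading embryo-only regions carried no H3K4me3 or H3K27ac of EpiSCs. The first, chr9:24346461-24346751 (291 bp, 157-fold in replicate 1 and 141-fold in replicate 2), was listed in all 4 other libraries, stimulated EpiSCs included. The second, chr9:3258786-3259109 (324 bp), had 61.6-fold and 35.1-fold enrichment in the 2 replicates. The next 2, chr4:146034212-146035667 (55.9-fold and 38.9-fold) and chr4:146649028-146650261 (47.1-fold and 31.0-fold), were 1456 and 1234 bp wide and were listed in all 3 later embryo libraries but not in stimulated EpiSCs. The fifth, chr1:173004300-173004922 (30.0-fold and 23.7-fold), overlapped H3K27me3 of EpiSCs and was likewise listed in the 3 later embryo libraries only.

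Windows rich in either class were picked for their counts, which are given as a description. The 500 kb window richest in EpiSC-only regions, spanning chr9:49536363-49980424, held 14 of them among 18 EpiSC regions, against 5 regions in E6.0 replicate 1 and 6 in replicate 2. It held 0 embryo-only regions, and 7 of the 14 were listed again at 48 h. The next windows, at chr1:134052439-134491677 and chr4:138018969-138440488, held 12 EpiSC-only regions each, among 35 and 24 EpiSC regions, with 20 and 9 shared and 7 and 2 embryo-only regions. The windows richest in embryo-only regions were chr4:146606546-146980104 with 24, chr11:3024680-3487684 with 23 and chr8:19535008-19991358 with 21, where EpiSCs had 19, 38 and 24 regions and E6.0 replicate 1 had 56, 61 and 49. None of the embryo-only regions in these 3 windows carried H3K27ac of EpiSCs. How reads with several matches in the genome were treated is not stated in these sources, which limits regions in repeated sequence. By chromosome, the EpiSC-only share of EpiSC regions ran from 16.9% (chromosome 19) to 24.3% (chromosome 12) over the 19 autosomes, with a median of 20.3%, and was 12.7% on chromosome X. The embryo-only share ran from 32.6% (chromosome 11) to 42.5% (chromosome 1), with a median of 38.1%, and was 33.8% on chromosome X.

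Open regions were counted around marker genes, from 50 kb before to 50 kb after each gene start. Offsets in bp given below run from the start to the summit of a region along mm9 positions. A positive offset is towards higher positions, whatever the strand of the gene. Since no mm9 annotation was at hand, starts were placed from knowledge of the genome and kept only where an H3K4me3 region of any of the 6 H3K4me3 lists lay within 1 kb, which left 36 of 41 genes. At these genes EpiSCs had 210 regions, against 304 in E6.0 replicate 1 and 326 in replicate 2. Of the 210, 172 (81.9%) were shared and 12 (5.71%) were EpiSC-only, against 20.2% EpiSC-only among all EpiSC regions. Genes were kept by H3K4me3, so these windows favour shared regions. H3K4me3 of Wnt3KO EpiSCs at 0 h overlapped 52.7% of all shared and 2.73% of all EpiSC-only regions. EpiSCs had fewer regions than both embryo libraries at 26 genes and more than both at 0. Of the 267 regions found in both E6.0 libraries, 93 (34.8%) were absent from EpiSCs, near the 37.6% of all such regions. Open regions within 1 kb of the start were listed for 35 of the 36 genes in EpiSCs and for all 36 in each E6.0 library, but the requirement of H3K4me3, measured in EpiSCs, favoured starts open in EpiSCs, and nothing is read from this count. Of the 5 genes not kept, Esrrb had its unchecked start listed in EpiSCs only. For Zfp42, a gene of naive pluripotency, the window had 0 regions in EpiSCs, against 3 and 2 in the E6.0 libraries, and the unchecked start was listed in both E6.0 libraries (15.6-fold and 13.8-fold).

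Starts of primed epiblast genes were listed in EpiSCs for 10 of 11 genes. Starts were also listed in EpiSCs for 7 of 7 visceral endoderm, 6 of 6 extraembryonic ectoderm and 4 of 4 fibroblast genes, so these lists do not check the label of the cells. Of the EpiSC regions at those 3 gene lists, 85.7%, 82.9% and 86.7% were shared. The 11 primed epiblast genes had 85 regions in EpiSCs, against 108 and 122 in the E6.0 libraries. Of the 85, 65 (76.5%) were shared and 8 (9.41%) were EpiSC-only, and 30 regions of both E6.0 libraries (31.2% of 96) were absent from EpiSCs. H3K27ac of wild-type EpiSCs lay at the start of 8 of the 11 genes, against 14 of all 36 genes. It lay at 4 of 4 broadly active, 1 of 7 visceral endoderm and 1 of 4 fibroblast starts. For extraembryonic ectoderm it was 0 of 6, for streak genes 0 of 3 and for naive pluripotency 0 of 2. The starts of Sox2, which encodes a core pluripotency factor, Pou3f1, which encodes the POU factor Oct6, Zic2 and Sall4, both encoding zinc finger transcription factors, fell in quintile 5 of the EpiSC list. Pou5f1, which encodes the pluripotency factor Oct4, had a start region with 16.0-fold enrichment in EpiSCs, in quintile 4.

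EpiSC-only regions at these genes were few and mostly weak. Sox2 had 2 of them, at 10034 and 42276 bp from its start (5.95-fold and 7.75-fold), and neither carried H3K27ac. Nodal, which encodes a TGF-beta ligand that maintains the epiblast, had 1 at -37648 bp (9.08-fold) that was listed again at 48 h. Its strongest embryo-only region, at -11860 bp, fell in quintile 5 of replicate 1 with 12.2-fold enrichment and was listed in E7.2 replicate 2 and not at 48 h. Nanog, which encodes a homeodomain pluripotency factor, had 8 regions in EpiSCs, all shared, against 14 and 12 in the E6.0 libraries. Its embryo-only region at -3608 bp was in quintile 4 of replicate 1 and carried H3K27ac of EpiSCs.

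Otx2, a homeobox gene of the epiblast and anterior neural plate, was the 1 gene whose placed start was not listed in EpiSCs. Both E6.0 libraries listed regions there, with 6.28-fold enrichment in replicate 1 and 3.79-fold in replicate 2. RefSeq (GRCm38.p6) gives 4 starts of Otx2 spread over 4910 bp on the minus strand, and which of them the placed start stands for was not resolved. EpiSCs listed an EpiSC-only region with H3K4me3 at 2229 bp from the placed start, on the upstream side (6.46-fold), and another with H3K4me3 and H3K27ac at 4118 bp (4.92-fold). Between them lay a shared region at 3631 bp (8.31-fold) with both marks. The listed regions at Otx2 therefore differed within a few kb of its starts, and these values come from 1 EpiSC library and from weak regions (quintiles 1 and 2). In lists of equal length the placed start was absent from EpiSCs and also from E6.0 replicate 2, and was in quintile 1 of replicate 1, so the difference from both embryo libraries was lost.

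The streak genes T (Brachyury), Eomes (a T-box factor of the streak and of trophoblast) and Wnt3 had no region that was EpiSC-only. They had 17 regions in EpiSCs, all shared, against 30 and 33 in the E6.0 libraries. Of the 27 regions in both E6.0 libraries, 11 (40.7%) were absent from EpiSCs. T had 4 regions in EpiSCs, against 6 and 9 in the embryo libraries, and its embryo-only regions at -44907 and -18690 bp were both listed in EpiSCs after 48 h of CHIR99021. Eomes had 7 regions in EpiSCs, against 14 and 13 in the embryo libraries, and its region at -9865 bp (quintile 5 of replicate 1, 10.1-fold) was not listed at 48 h. None of the 9 embryo-only regions at Eomes and Wnt3 was listed at 48 h, where 10.8% of all embryo-only regions were listed. With so few regions and so low a share, nothing is read from the difference between these genes and T.

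Genes of the other tissues of the embryo, like those of most lists here, had more open regions in the longer lists of the E6.0 libraries. At 7 genes of visceral endoderm (Gata6, Gata4, Sox17, Foxa1, Hhex, Lefty1 and Pdgfra) EpiSCs had 28 regions, against 59 and 54 in the E6.0 libraries. Of the 28, 24 were shared and 0 were EpiSC-only, and 24 of the 49 regions in both E6.0 libraries were absent from EpiSCs (49.0%). Gata4, which encodes an endoderm GATA factor, had 3 regions in EpiSCs, against 9 and 11. Foxa1, which encodes a forkhead factor, had 6, against 13 and 9, and its embryo-only region at 30024 bp reached 15.5-fold enrichment in quintile 5 of replicate 1. At 6 genes of extraembryonic ectoderm (Cdx2, Eomes, Tfap2c, Bmp4, Ascl2 and Gata2) EpiSCs had 35 regions, against 56 and 60, and 22 of 51 regions of both E6.0 libraries were absent (43.1%). Bmp4, the ligand that extraembryonic ectoderm sends to the epiblast, had 5 regions in EpiSCs, against 12 and 11. Starts of all 13 genes were listed in EpiSCs too, but a gene was kept here only where an EpiSC list of H3K4me3 had a region near the start. Ttr, which encodes the carrier protein transthyretin made by visceral endoderm, was not kept, and the window at its unchecked position had 0 regions in EpiSCs, against 3 and 2 in the E6.0 libraries. The share of such cells in the embryo samples was not tested, and in bulk samples a region open in fewer cells and one less open in each cell cannot be told apart.

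List length bears on these counts. In lists of equal length, tried after the data were seen, the absent share of regions in both E6.0 libraries was 28.1% (9 of 32) at visceral endoderm genes, 28.6% (10 of 35) at extraembryonic ectoderm genes, 30.4% (7 of 23) at streak genes and 23.6% (17 of 72) at primed epiblast genes, against 26.5% for all regions. It was 14.8% (4 of 27) at broadly active genes, 4 of 16 regions at fibroblast genes and 12.5% (1 of 8) at naive pluripotency genes. EpiSC-only regions then numbered 2 at visceral endoderm genes, 4 at extraembryonic ectoderm genes, 0 at streak genes and 12 at primed epiblast genes. Total counts in EpiSCs were then 28 against 39 and 38 at visceral endoderm genes, 35 against 43 and 40 at extraembryonic ectoderm genes, 17 against 25 and 24 at streak genes, 85 against 87 and 94 at primed epiblast genes, and 9 against 9 and 9 at naive pluripotency genes. At 4 broadly active genes (Actb, Gapdh, Myc and Ccnd1) EpiSCs had 28 regions with the lists as deposited, against 33 and 35. At 4 fibroblast genes (Col1a1, Col1a2, Thy1 and Twist1), which feeder cells express, EpiSCs had 15 regions, against 23 and 24, and 2 were EpiSC-only, at -8063 bp of Col1a1 and 28762 bp of Thy1. The 2 naive pluripotency genes that could be placed, Klf4 and Fgf4, had 9 regions in EpiSCs, against 9 and 11.

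**Figure D5:**
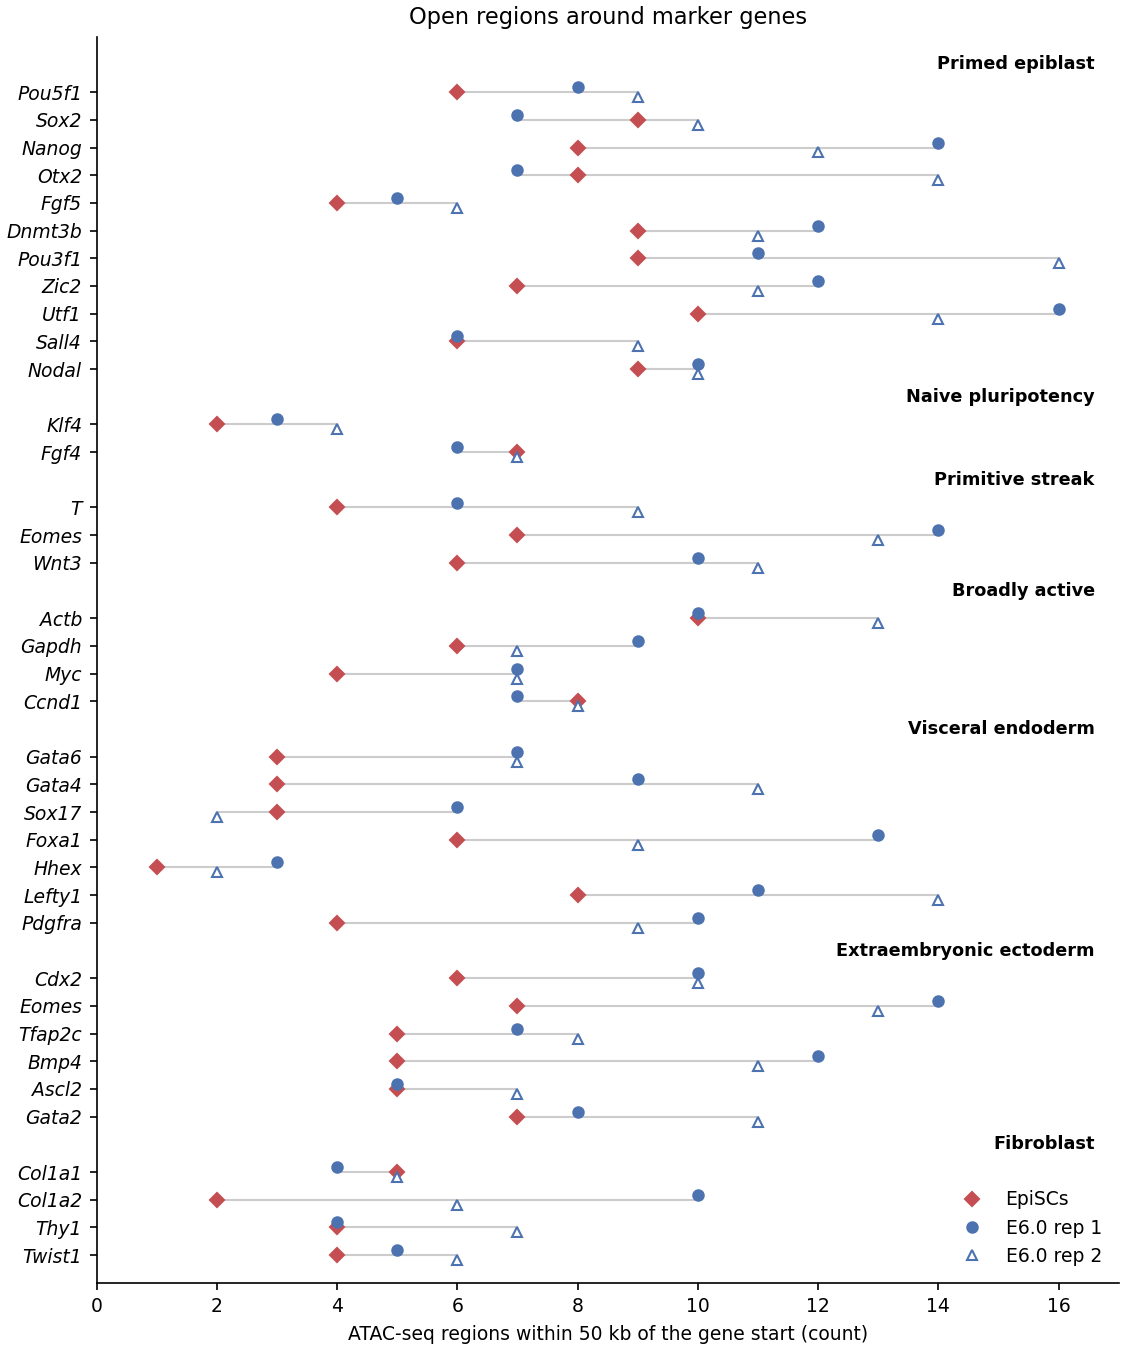
Number of ATAC-seq regions within 50 kb of the start (horizontal axis) of 36 marker genes (rows, Eomes shown under both of its lists), in EpiSCs (diamonds), E6.0 replicate 1 (filled circles) and E6.0 replicate 2 (open triangles), from the lists as deposited. EpiSCs are below both embryo libraries at 26 genes and above both at 0, and the deposited EpiSC list is also the shortest.

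In lists of equal length, the start region lay in a lower quintile in EpiSCs than in both E6.0 libraries for 10 of the 36 genes and in a higher one for 7. The start region of 4 genes lay at least 2 quintiles lower in EpiSCs than in both E6.0 libraries, and none lay at least 2 quintiles higher. The genes, chosen by this count after the values were seen, were Utf1, which encodes a chromatin-associated factor of pluripotent cells (quintile 3, against 5 and 5), Fgf4, which encodes the main Fgf ligand of the epiblast (1, against 4 and 4), Sox17, which encodes an endoderm SOX factor (1, against 4 and 3), and Cdx2, which encodes a caudal homeodomain factor of trophectoderm and, later, of the posterior embryo (1, against 4 and 4). The start of T was in quintile 2, against 4 and 3. The E6.0 libraries also lay at least 2 quintiles apart from each other at some starts. Replicates 1 and 2 were in quintiles 1 and 4 at Lefty1 and Col1a1, 1 and 3 at Nodal, and 3 and 1 at Ccnd1 and Gata2. A gap of 2 quintiles from 1 EpiSC library is thus of a size also seen between the embryo libraries. In the lists as deposited the Cdx2 start had 5.18-fold enrichment in EpiSCs, within that list, and all 6 EpiSC regions at Cdx2 were shared. The EpiSC lists of H3K27me3 had 10 and 14 regions in the Cdx2 window, 5 and 5 at Sox17, 3 and 4 at Fgf4, 1 and 2 at Utf1, and 0 and 0 at Sox2. They also had 8 and 12 at Gata4, 5 and 8 at Tfap2c and 9 and 11 at Foxa1, which are not among these 4 genes. H3K27ac was listed at the starts of Sox2 and Utf1 and not at those of Fgf4, Sox17 and Cdx2.

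The promoters of 3 of these genes, with that of Sox2 (quintile 5, against 4 and 5) for comparison, are given from RefSeq (GRCm38.p6), from 250 bases before to 50 bases after the start, with each CG in capitals, since unmethylated CG-rich promoters are the usual sites of both H3K4me3 and H3K27me3. The table used held no Sox17 promoter. These positions are in another build than the peaks, so bases were not aligned to the peaks.
Sox2: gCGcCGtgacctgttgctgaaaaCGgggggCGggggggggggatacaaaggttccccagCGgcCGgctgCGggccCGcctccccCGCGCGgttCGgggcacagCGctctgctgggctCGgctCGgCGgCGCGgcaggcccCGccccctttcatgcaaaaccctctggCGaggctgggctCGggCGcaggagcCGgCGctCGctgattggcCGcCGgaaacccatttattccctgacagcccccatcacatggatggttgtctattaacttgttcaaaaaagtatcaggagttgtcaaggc
Utf1: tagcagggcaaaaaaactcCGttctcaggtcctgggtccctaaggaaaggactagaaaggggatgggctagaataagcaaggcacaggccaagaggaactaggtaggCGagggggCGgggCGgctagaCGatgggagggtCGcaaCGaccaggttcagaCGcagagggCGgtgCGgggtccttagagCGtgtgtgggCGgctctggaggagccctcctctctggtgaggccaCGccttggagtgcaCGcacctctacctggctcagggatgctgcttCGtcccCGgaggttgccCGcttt
Fgf4: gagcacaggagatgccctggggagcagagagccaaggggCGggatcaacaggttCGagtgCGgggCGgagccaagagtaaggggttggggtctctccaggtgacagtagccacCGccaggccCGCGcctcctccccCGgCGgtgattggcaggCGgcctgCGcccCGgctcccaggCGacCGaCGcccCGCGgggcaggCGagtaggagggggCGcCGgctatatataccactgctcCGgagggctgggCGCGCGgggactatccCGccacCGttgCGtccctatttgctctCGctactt
Cdx2: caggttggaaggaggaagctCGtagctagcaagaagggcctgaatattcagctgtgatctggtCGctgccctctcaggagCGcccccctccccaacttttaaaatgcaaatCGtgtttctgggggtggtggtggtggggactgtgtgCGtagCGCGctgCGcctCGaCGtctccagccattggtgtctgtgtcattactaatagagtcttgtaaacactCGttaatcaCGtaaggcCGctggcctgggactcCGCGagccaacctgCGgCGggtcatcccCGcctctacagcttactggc
The Sox2 promoter (chr3:34649745-34650044, plus strand) held 27 CG, that of Utf1 (chr7:139943606-139943905, plus strand) 17, that of Fgf4 (chr7:144861136-144861435, plus strand) 28 and that of Cdx2 (chr5:147307200-147307499, minus strand) 18. Over the 32841 promoters of this length in the table the median was 7 CG, and 15.5%, 31.4%, 14.2% and 29.7% of them held at least as many CG as these 4. CG reads the same on both strands. All 4 promoters were therefore above the median in CG content, the strong and the weak ones alike. The genes were kept only where H3K4me3 lay near the start, which favours CG-rich promoters, so nothing is read from this.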

How the data were processed

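ATAC-seq peak lists of wild-type EpiSCs at 0 h (1 library) and wild-type E6.0 embryos (2 libraries) were compared in mm9. Per the labels' protocols, ATAC-seq libraries were made with a modified Nextera kit. For ATAC-seq the submitters' processing notes name MACS2 2.1.0 with cutadapt 1.8.1, SAMtools 0.1.19 and Bowtie2 2.1.0, and for ChIP-seq Bowtie 1.1.0 in place of cutadapt and Bowtie2, without the role of each. Whether reads were shifted for the transposase, and whether duplicates or reads with several matches were kept, is not stated there. Lists were called per library. Fold enrichment, as deposited by the authors, is a ratio of signal over local background. The deposited −log10 q value came from the same peak caller and was used to rank regions within a list and for the alternative threshold of 5.

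An overlap of 1 bp or more counted. Intervals of shares are Wilson intervals at 95% (scipy 1.17.1). No test was run, because EpiSCs had 1 library. The overlap and distance functions were tested on simulated data. The members, gene lists, windows and alternatives were chosen with earlier results of these data known. Regions named are the 5 with the highest −log10 q in each class, without those over an input region, and the 3 windows of 500 kb with the most regions of a class. The ranking of EpiSC-only regions with H3K27ac and no H3K4me3 also left out chromosome 18. Genes named come from lists of tissue markers. Of 41 genes, 36 could be placed, and those that could not (Esrrb, Zfp42, Dppa3, Foxa2 and Ttr) were left out. GRCm38.p6 tables of RefSeq were used only for chromosome names, promoter sequences and the number, span and strand of the Otx2 starts. H3K4me3 lists of stimulated EpiSCs were used only to place gene starts, other lists of stimulated ChIP-seq samples were not used, and 4C-seq samples were not analysed here.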

Additional observations from a re-analysis of the deposited data

How the results depend on the processing

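With 47 values under other settings for 7 shares, 30 stayed within 1 SD of the main value and 17 moved further, and the cause was not tested. The SD is that of the 2 values obtained with either E6.0 library alone. Those 2 values can lie far from the main value, so this SD does not measure the spread between samples. EpiSC regions in both E6.0 libraries (67.6%) were 58.9% with summits within 250 bp and 58.0% with lists of equal length, and 71.5% to 75.8% with 1 E6.0 library left out. EpiSC regions in neither (20.2%) were 23.9% and 29.3% under the same settings, and 24.2% to 28.5% with 1 E6.0 library. Regions of both E6.0 libraries absent from EpiSCs (37.6%) were 41.2% and 26.5%, and 48.4% to 49.3% with 1 E6.0 library.

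H3K27ac at EpiSC-only regions (4.97%) was 3.57% when 50% of the smaller region had to be covered, 8.17% with summits, 5.61% with equal lists, 2.42% with H3K27ac of Wnt3KO EpiSCs, and 4.88% to 5.57% with 1 E6.0 library. At embryo-only regions (0.934%) it was 0.673% with the 50% overlap, 3.37% with summits, 0.337% with H3K27ac of Wnt3KO EpiSCs, and 0.762% to 1.01% with 1 E6.0 library. H3K4me3 at EpiSC-only regions (2.73%) was 10.3% with summits, 4.64% with equal lists and 3.03% to 4.10% with 1 E6.0 library. At embryo-only regions (2.03%) it was 6.47% with summits, 2.23% at −log10 q of at least 5 and 1.54% to 1.74% with 1 E6.0 library. In each of these settings H3K27ac stayed more frequent at EpiSC-only than at embryo-only regions. Taking embryo-only regions from the replicate 2 list, tried after the data were seen, gave 37.7%, 0.925% and 1.94%. No paired analysis was possible because EpiSCs had 1 library and no replicate number links it to an embryo library. Depth is unknown, and absence from a list is not absence of open chromatin.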
